A study of Mus musculus with 3 samples.

Results

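Guanylate-binding protein (Gbp) genes and immunity-related GTPase (Irg) genes were compared across 3 arrays of mouse retina. The family was given as 10 genes, Gbp2, Gbp3, Gbp5, Gbp6, Gbp7, Gbp9, Gbp10, Irgm1, Igtp and Iigp1. A gene was measured when a probe set was annotated to it alone, and where a gene had several such probe sets the one with the highest mean would be taken. This held for 9 of the 10 genes, each with 1 probe set, of 22180 genes in all. Gbp2 had no probe set annotated to it alone. The genes were chosen with their values in these arrays known, so the differences below are a description, with no test.

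The study injected agents related to caveolin-1, a coat protein of caveolae, into the vitreous of C57 mice. The cavtratin group was taken 2 hr after injection of cavtratin, a cell-permeable peptide with the scaffolding domain of caveolin-1. The Cav1-shRNA group was taken 2 days after injection of a hairpin RNA directed, by its name, at Cav1, and the AP control group 2 hr after injection of AP, which the labels do not spell out. All groups were injected, and each was 1 array of total RNA pooled from 5 to 6 retinae, with no genotype, age or sex given, so there were no replicates and every difference compares 2 arrays and not the conditions. Cav1-shRNA differs from AP control in the agent and in the time, which cannot be told apart. Cav1 itself had the same log2 value, 8.26, in all 3 arrays. Exact ties of this kind held for 50.1% of genes, so the tie shows neither lower nor unchanged Cav1 RNA. Whether the hairpin lowered Cav1 cannot be read from these arrays, and each direction drawn from Cav1-shRNA carries that limit.

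Both families are large groups of GTPases that interferons switch on, interferon-gamma above all. In mouse cells they gather on the vacuoles of intracellular parasites and bacteria, break these membranes and expose the microbe to autophagy proteins and inflammasomes. Among the Irg proteins, regulatory members (Irgm1, Irgm2 and Igtp) sit on the cell's own membranes and hold effector members such as Iigp1 in check. In retina, microglia, Muller glia and vascular cells can respond to interferon.

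The promoters of these genes are shown because interferon acts on them through short DNA motifs. Windows from 250 bases before to 50 bases after the gene's start, from RefSeq on GRCm38.p6, were searched on both strands for 3 motifs. These were the core of the interferon-stimulated response element, GAAA repeated after any 2 bases, the gamma-activated site, TTCNNNGAA, and an NF-kB site, GGG and CC with any 5 bases between them. The 180 bases before the start are printed for the 6 listed genes whose windows were used and for Irgm2, a regulatory Irg gene next to Igtp. Capitals mark the first 2 motifs, and the strand is that of the gene, so an element on the other strand reads as its reverse complement.
Gbp5, chr3:142496754-142496933, plus strand: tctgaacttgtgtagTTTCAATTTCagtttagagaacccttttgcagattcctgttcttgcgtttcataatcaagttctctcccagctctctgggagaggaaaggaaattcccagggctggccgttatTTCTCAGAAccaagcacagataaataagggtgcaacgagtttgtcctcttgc
Gbp7, chr3:142530156-142530335, plus strand: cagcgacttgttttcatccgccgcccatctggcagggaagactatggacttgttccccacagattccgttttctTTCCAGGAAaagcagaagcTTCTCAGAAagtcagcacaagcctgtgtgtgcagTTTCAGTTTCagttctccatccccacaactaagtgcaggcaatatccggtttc
Gbp3, chr3:142559864-142560043, plus strand: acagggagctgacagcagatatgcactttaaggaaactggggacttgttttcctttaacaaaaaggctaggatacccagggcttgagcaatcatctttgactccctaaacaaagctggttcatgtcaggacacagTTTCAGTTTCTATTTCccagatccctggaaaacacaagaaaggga
Gbp2, chr3:142620483-142620662, plus strand: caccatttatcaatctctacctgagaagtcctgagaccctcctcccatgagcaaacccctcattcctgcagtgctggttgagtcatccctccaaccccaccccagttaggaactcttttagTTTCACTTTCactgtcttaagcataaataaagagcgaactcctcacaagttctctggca
Igtp, chr11:58199376-58199555, plus strand: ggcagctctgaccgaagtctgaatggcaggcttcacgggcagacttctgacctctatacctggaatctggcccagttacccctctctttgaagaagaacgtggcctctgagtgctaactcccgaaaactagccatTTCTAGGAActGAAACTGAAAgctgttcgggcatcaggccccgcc
Irgm2, chr11:58214797-58214976, plus strand: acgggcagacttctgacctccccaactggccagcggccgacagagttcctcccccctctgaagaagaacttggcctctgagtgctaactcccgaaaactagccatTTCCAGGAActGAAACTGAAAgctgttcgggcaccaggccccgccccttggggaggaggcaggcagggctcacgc
Irgm1, chr11:48871421-48871600, minus strand: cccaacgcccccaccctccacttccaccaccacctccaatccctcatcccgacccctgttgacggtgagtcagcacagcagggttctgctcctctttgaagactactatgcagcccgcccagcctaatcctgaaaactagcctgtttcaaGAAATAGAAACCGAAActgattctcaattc

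The interferon-stimulated response element letters were present in the windows of all 6 listed genes, against 3.44% of the 32851 promoter windows of the same length. Gbp3 has a further window, and that window held none of the motifs. The gamma-activated site letters were present in Gbp5, Gbp7 and Igtp, 3 of 6, against 8.30% of all windows, and the NF-kB letters in 4 of 6, against 50.8%. Gbp3 and Irgm1 each held a pair of response elements whose first bases lie 6 bases apart and which overlap by 4 bases. In Igtp and Irgm2 the gamma-activated site began 11 bases before the response element, and the printed stretches of these neighbours share an identical run of 38 bases. Gbp5 had its response element 165 bases before the start, farther out than in the other printed genes, with gamma-activated sites 245 and 52 bases before the start. These matches describe letters and not bound sites. Sequences of Gbp6, Gbp9, Gbp10 and Iigp1 were not used here.

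**Figure D1:**
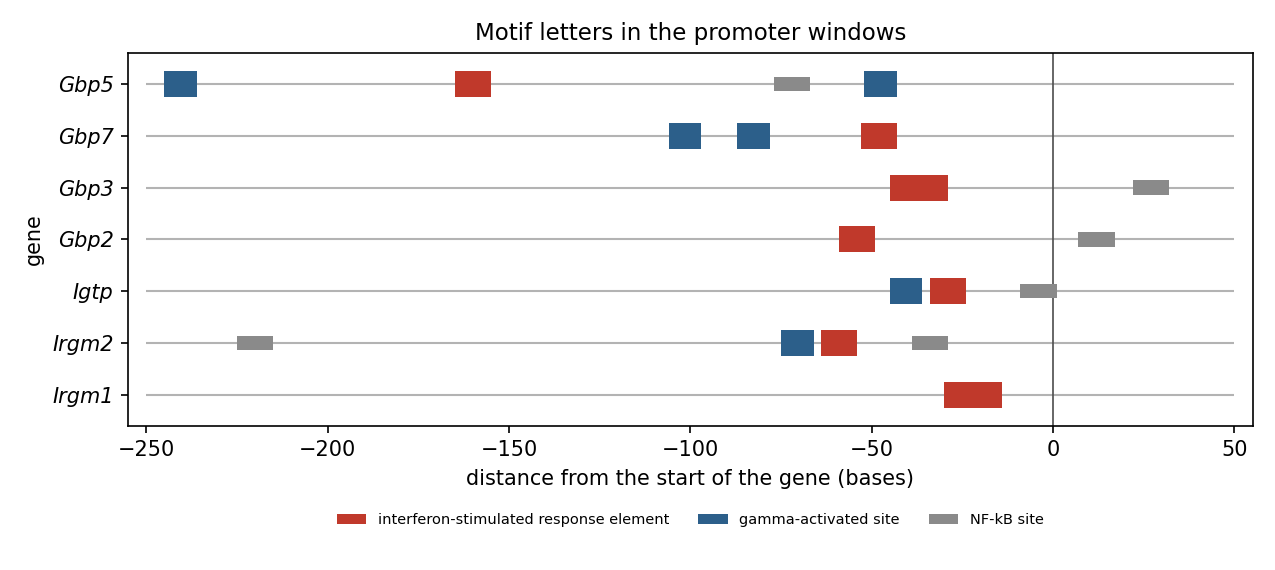
Motif letters in the promoter windows of 7 genes. The horizontal axis is the distance from the gene's start in bases, each line is 1 window from 250 bases before to 50 bases after the start, and coloured blocks are matches to the 3 motifs. Each window holds at least 1 interferon-stimulated response element, and Igtp and Irgm2 share the spacing of 11 bases.

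Values are deposited log2 levels per probe set, and a difference is one array's log2 level minus another's. Levels of different probe sets are not comparable. Small values carry little signal, so a floor of 6.50 was used, which is the midpoint (median) of the 3-array means of all probe sets with 1 gene symbol. Calls of at least 2-fold needed a difference of 1 or more in size and a value at or above the floor in either array. Such calls were few, so the middle 95% of differences over all genes at or above the floor serves as a further scale. It ran from −0.17 to 0.51 for cavtratin minus AP control, from −0.18 to 0.28 for Cav1-shRNA minus AP control and from −0.38 to 0.16 for Cav1-shRNA minus cavtratin. Many deposited values recur exactly. The 41345 probe sets had 22793, 23360 and 23153 distinct values in the cavtratin, Cav1-shRNA and AP control arrays, and 50.1% of genes had the same value in all 3 arrays, so an exact tie does not show an unchanged level.

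Gbp5, Gbp7 and Gbp3, on chromosome 3, were lower in cavtratin and in Cav1-shRNA than in AP control. RefSeq places the Gbp genes of that chromosome in the order Gbp5, Gbp7, Gbp3, Gbp2b and Gbp2, with 1 other gene between Gbp3 and Gbp2b. Gbp5, which promotes assembly of the NLRP3 inflammasome in mouse macrophages, had log2 levels of 6.11 in cavtratin and 5.88 in Cav1-shRNA, against 7.80 in AP control. AP control was the only array in which Gbp5 reached the floor. Its log2 differences from AP control were −1.69 for cavtratin and −1.92 for Cav1-shRNA, or ratios of 0.309 and 0.264, which may understate the difference because the lower values lie under the floor. Among the 9 measured genes these were the lowest differences in either comparison. Fewer cells of a type and less RNA per cell cannot be told apart in these pooled tissues, here or below.

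Gbp7, linked in mouse macrophages to oxidative killing of bacteria, had log2 levels of 7.59 in cavtratin and 7.58 in Cav1-shRNA, against 8.13 in AP control. All 3 arrays lay above the floor, and the differences of −0.54 and −0.55 were short of 2-fold. Gbp3, a paralog in the same cluster, was at 6.45 in cavtratin and 6.58 in Cav1-shRNA, against 7.27 in AP control. That made differences of −0.83 and −0.69, with the cavtratin value just under the floor. Thus the ordering was the same for Gbp5, Gbp7 and Gbp3, with AP control the high array and both others below it.

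Gbp2, which coats vacuoles of Toxoplasma and bacteria in mouse cells, could not be measured alone. Probe set 17403268, annotated to both Gbp2 and Gbp2b, had log2 levels of 8.55 in cavtratin and 8.52 in Cav1-shRNA, against 10.13 in AP control. Its differences were −1.59 and −1.61, or ratios of 0.333 and 0.327, and all 3 arrays were above the floor. Gbp2b had a probe set of its own, which was at 5.11 in all 3 arrays, below the floor. The signal of the shared probe set is assigned to neither gene here. Gbp genes are close paralogs, and cross-hybridisation between them was not tested.

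Gbp9 and Gbp10, from the second Gbp cluster on chromosome 5, followed the same direction. Their order there is Gbp8, Gbp9, Gbp4, Gbp10, Gbp6 and Gbp11, with 2 other genes between Gbp4 and Gbp10, and single roles are less well known for these genes. Gbp9 had log2 levels of 6.87 in cavtratin and 7.21 in Cav1-shRNA, against 8.12 in AP control. Its differences from AP control were −1.25 and −0.91, or ratios of 0.420 and 0.533. Gbp10 was at 7.26 in cavtratin and 7.38 in Cav1-shRNA, against 8.28 in AP control. For Gbp10 the differences were −1.02 and −0.90, or ratios of 0.492 and 0.535. Both genes were above the floor in all 3 arrays and passed 2-fold in cavtratin, and both were short of it in Cav1-shRNA. In AP control the exact value of Gbp9 was shared by 9 other probe sets and that of Gbp10 by 11, while in the other arrays no other probe set had their values.

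Gbp6 showed no difference between arrays, with a log2 level of 3.58 in all 3, far below the floor. A tie at that level says nothing about the gene in retina. Its neighbour Gbp4, not among the 10 genes, had log2 levels of 4.07 in cavtratin and 4.63 in Cav1-shRNA, against 6.13 in AP control. The differences of −2.06 and −1.50 are large, yet all 3 values lie below the floor, so Gbp4 was not counted as 2-fold apart. Gbp11, a transcribed pseudogene, was also below the floor in every array, at 3.89 in cavtratin and 4.11 in Cav1-shRNA, against 4.47 in AP control. Gbp8, at 3.53, 3.67 and 3.67 in cavtratin, Cav1-shRNA and AP control, was below the floor too.

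**Figure D2:**
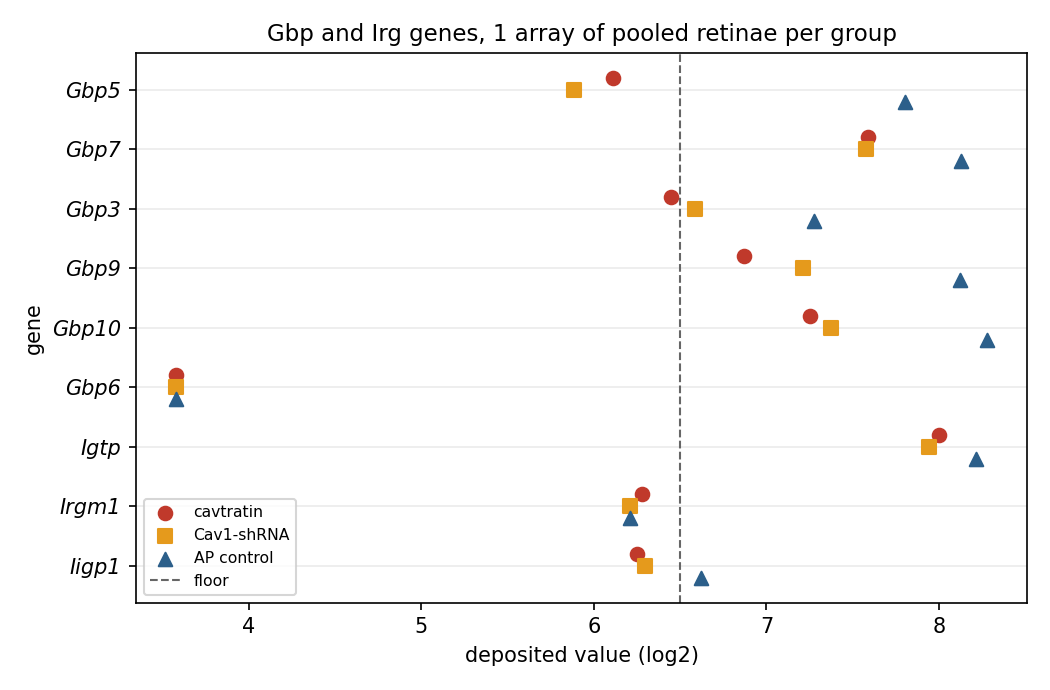
Log2 levels of the 9 measured Gbp and Irg genes. Each point is 1 array (circle, cavtratin; square, Cav1-shRNA; triangle, AP control), and the dashed line is the floor of 6.50. AP control is the highest array for Gbp5, Gbp7, Gbp3, Gbp9, Gbp10, Igtp and Iigp1, Gbp6 is at 3.58 in all 3 arrays, and Irgm1 lies below the floor throughout.

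Among the listed Irg genes Igtp alone was above the floor in all 3 arrays. Igtp, a regulatory Irg protein also called Irgm3, had log2 levels of 8.001 in cavtratin and 7.939 in Cav1-shRNA, against 8.217 in AP control. Its differences of −0.22 and −0.28 lay just outside the middle 95% of genes, with all arrays above the floor. Iigp1, an effector that attacks parasite vacuoles, was at 6.25 in cavtratin and 6.30 in Cav1-shRNA, against 6.62 in AP control. It reached the floor in AP control alone, with differences of −0.37 and −0.32, and its AP control value was shared by 29 other probe sets.

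Irgm1, the regulator needed in mice for resistance to several intracellular bacteria, was at 6.28 in cavtratin and 6.21 in Cav1-shRNA, against 6.21 in AP control. All values were under the floor, and the value 6.21 was shared exactly by 17 other probe sets in Cav1-shRNA and 25 in AP control, so Irgm1 gave no direction. Irgm2, the other regulatory gene, was above the floor in all 3 arrays, at 7.77 in cavtratin and 7.73 in Cav1-shRNA, against 7.77 in AP control. Its cavtratin and AP control values are an exact tie, which does not show an unchanged level. Igtp and Irgm2 are adjacent and share the spacing of gamma-activated site and response element, while their NF-kB letters lie at different places. Their differences from AP control were −0.22 and 0 in cavtratin and −0.28 and −0.038 in Cav1-shRNA. Gbp3 and Irgm1 both carry the overlapping pair of response elements, and only Gbp3 had a level above the floor. Whether the motifs bear on these differences was not tested.

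Further genes of these GTPase families gave little signal. Of 17 on the list, 12 had a probe set of their own, and Irgm2 was the 1 gene of the 12 that reached the floor in any array. Relative to AP control, 6 of the 12 were lower, 1 higher and 5 equal in both cavtratin and Cav1-shRNA, with list medians of −0.066 and −0.019. Gm4951, an Irg-like gene near Iigp1, was at 5.66 in cavtratin and 6.05 in Cav1-shRNA, against 6.35 in AP control. Mx2, an antiviral GTPase induced by type I interferon, was at 5.78 in cavtratin and 5.72 in Cav1-shRNA, against 6.17 in AP control. No 2-fold call was made in this list.

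**Figure D3:**
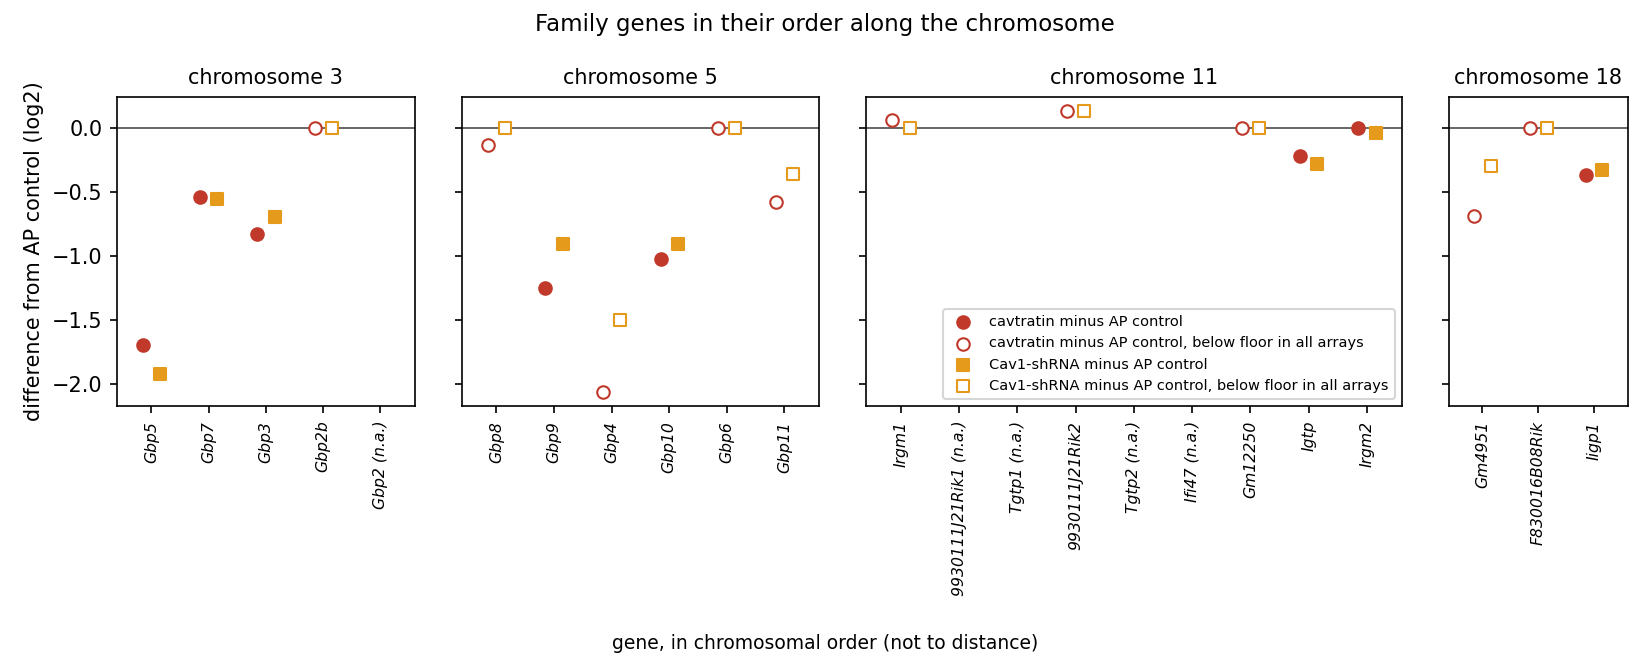
Log2 differences from AP control for family genes in chromosomal order (circles, cavtratin; squares, Cav1-shRNA; open symbols, below the floor in all 3 arrays; n.a., no probe set of its own). Spacing is not to distance. Gbp5, Gbp7 and Gbp3 on chromosome 3 and Gbp9 and Gbp10 on chromosome 5 lie below 0 in both comparisons, by −0.54 or more in size, while Irgm2 on chromosome 11 lies between −0.038 and 0.

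Counted over the 9 measured genes, 7 were lower in cavtratin than in AP control, 1 was higher and 1 was equal. Their median difference was −0.54. Of the 9, 7 reached the floor in either array, Gbp3, Gbp5 and Iigp1 of them through AP control alone. The median over these 7 was −0.83, beside 0 over the 11477 genes at or above the floor. Of those 11477 genes, 25.9% were lower and 54.5% were equal. At least 2-fold lower were 3 of these 7, Gbp5, Gbp9 and Gbp10, where 0.0958% of the 11477 genes were called, and 0 were at least 2-fold higher, where 1.36% were. At 1.5-fold Gbp3 joined them, for 4 of 7 against a background of 0.235%. These shares are no evidence for the family, since the genes were picked on this contrast. By family the median was −0.93 over 6 Gbp genes and −0.22 over 3 Irg genes.

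In Cav1-shRNA, 7 of the 9 were lower than in AP control and 2 were equal. The median difference was −0.55. Over the 7 that reached the floor in either array it was −0.69, beside 0 over 11433 genes at or above the floor. Of those 11433 genes, 21.9% were lower and 53.0% were equal. At least 2-fold lower was 1 of the 7 that reached the floor, Gbp5, with a background of 0.122%, and 0 were at least 2-fold higher, with a background of 0.341%. At 1.5-fold the count was 4 of 7, with a background of 0.367%, and these 4 were again Gbp5, Gbp9, Gbp10 and Gbp3. Here Gbp5 and Iigp1 reached the floor through AP control alone, the array where they are high. These shares are no evidence for the family either, since the genes were chosen with their values known. Median differences were −0.80 for the 6 Gbp genes and −0.28 for the 3 Irg genes. Both comparisons use the same AP control array, so a deviation of that array alone would enter both.

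Set directly against each other, Cav1-shRNA and cavtratin differed by 0.35 or less in size for each of the 9 genes. Cav1-shRNA minus cavtratin, which does not use AP control, had a median of 0 over the 9 genes, with 4 higher, 4 lower and 1 equal. That 0 is the tie of Gbp6, far below the floor. Over the 5 members that reached the floor in either array the median was 0.12. No member was 2-fold apart in either direction, with backgrounds of 0.0349% for higher and 0.785% for lower. Gbp9 was the most distant, 0.35 higher in Cav1-shRNA and outside the middle 95% of genes. Gbp3 and Gbp10 were higher by 0.14 and 0.12 and Iigp1 by 0.045, while Gbp5 was at −0.23, Irgm1 at −0.065, Igtp at −0.061 and Gbp7 at −0.014. Gbp5, Iigp1, Irgm1 and Gbp6 were below the floor in both arrays of this comparison, so their order there was not read.

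**Figure D4:**
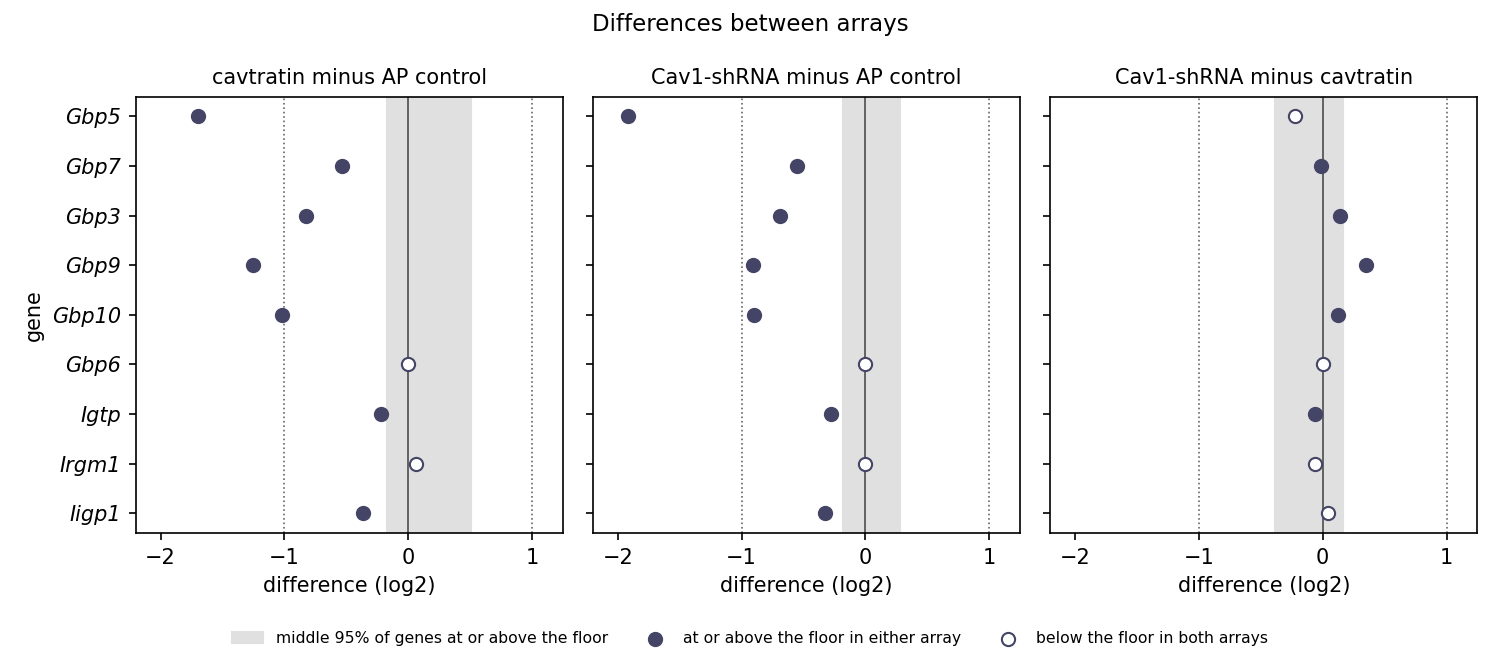
Log2 differences of the 9 genes in the 3 comparisons. Points are genes, open where both arrays lie below the floor, the grey band is the middle 95% of all genes at or above the floor, and dotted lines mark 2-fold. In both comparisons with AP control 7 genes lie left of the band, whereas in Cav1-shRNA minus cavtratin Gbp9, at 0.35, lies right of it.

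Interferon receptor chains were slightly higher than in AP control, and the interferon genes themselves gave small or no differences. Ifng, the gene of interferon-gamma, was below the floor at 4.99 in cavtratin and 4.99 in Cav1-shRNA, against 5.11 in AP control, and Ifnb1 was at 3.53 in all 3 arrays. Ifngr1 and Ifngr2, the chains of the interferon-gamma receptor, were higher than in AP control, by 0.057 and 0.23 in cavtratin and by 0.057 and 0.14 in Cav1-shRNA. Ifnar2, a type I interferon receptor chain, had the largest difference of the list, 0.49 in cavtratin and 0.25 in Cav1-shRNA. Of the 10 genes listed and measured, 5 were higher, 3 lower and 2 equal in both comparisons, with medians of 0.010 in each.

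Genes of the signalling chain were level or slightly higher for the most part. Irf1, a factor through which interferon-gamma induces Gbp genes, was at 7.05 in all 3 arrays, and Jak1, a receptor kinase, was at 10.08, 10.08 and 10.07 in cavtratin, Cav1-shRNA and AP control. Stat2 was 0.55 higher in cavtratin and 0.10 higher in Cav1-shRNA, and Irf7, a factor of the type I response, was higher by 0.57 and 0.38. Socs3, a feedback inhibitor of cytokine signalling, was 0.55 higher in cavtratin and equal in Cav1-shRNA. Of 17 measured genes of 18 listed, 11 were higher, 2 lower and 4 equal in cavtratin, and 4 higher, 3 lower and 10 equal in Cav1-shRNA, with medians of 0.0089 and 0 and 0 genes 2-fold apart. A list median of 0 was also that of all genes.

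Other interferon-inducible genes split. Cxcl10, a chemokine induced by interferon-gamma and by NF-kB, had log2 levels of 7.03 in cavtratin and 6.42 in Cav1-shRNA, against 10.32 in AP control, the same order of arrays as Gbp5. Ifi203-ps, a pseudogene of the interferon-inducible Ifi200 cluster, was at 6.42 in cavtratin and 6.18 in Cav1-shRNA, against 7.77 in AP control. Ifit1, an antiviral RNA-binding protein, was at −0.69 and −0.81, and Ifi205 at −0.47 and −1.08. Rsad2, the antiviral enzyme viperin, went both ways, at −1.01 in Cav1-shRNA and 0.39 in cavtratin. Nos2, inducible nitric oxide synthase, was higher by 2.19 and 0.89, and Ifit2 and Ifit3 were equal in all arrays. Over 20 listed genes, 6 were higher, 9 lower and 5 equal in cavtratin, and 2 higher, 13 lower and 5 equal in Cav1-shRNA. In each comparison 15 reached the floor, of which 1 was at least 2-fold higher and 2 were lower in cavtratin, with backgrounds of 1.36% and 0.0958%, and 0 and 4 in Cav1-shRNA, with backgrounds of 0.341% and 0.122%.

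Proteins that act with Gbp proteins behaved differently by group. Among 9 inflammasome and cell-death partners, 5 reached the floor in cavtratin or AP control, and in cavtratin 3 of these passed 2-fold upward and 0 downward, with backgrounds of 1.36% and 0.0958%. Nlrp3, the sensor that Gbp5 assists, was at 7.99 in cavtratin and 6.33 in Cav1-shRNA, against 6.07 in AP control. Casp4, the mouse sensor of bacterial lipopolysaccharide also known as caspase-11, was at 7.27 in cavtratin and 6.08 in Cav1-shRNA, against 5.65 in AP control. Il1b, the cytokine that inflammasomes mature, was at 11.75 in cavtratin and 9.62 in Cav1-shRNA, against 9.65 in AP control. In cavtratin, then, Gbp5 was lower in the same array in which Nlrp3, Casp4 and Il1b were higher. Aim2 and Gsdmd, below the floor, were equal in all 3 arrays.

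Autophagy genes that load Irg and Gbp proteins onto vacuoles differed from AP control by 0.23 or less in size. Of 15 genes, all above the floor, 4 were higher, 2 lower and 9 equal in cavtratin, and 5, 1 and 9 in Cav1-shRNA, while 54.5% and 53.0% of all genes at or above the floor were equal in these comparisons. Sqstm1, the ubiquitin-binding adaptor p62, was 0.23 higher in cavtratin and 0.13 higher in Cav1-shRNA. Trim21, an antibody receptor and ubiquitin ligase itself induced by interferon, was at −0.13 in both. Enzymes that attach and finish the lipid tail of CaaX proteins, among them some Gbp proteins, were equal to AP control in cavtratin for 5 of 6 genes, the exception being Rce1, a CaaX protease, at 0.021.

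Antigen processing genes that interferon-gamma induces had small differences. In Cav1-shRNA 8 of 10 measured genes were above AP control, 0 below and 2 equal, where 25.2% of all genes at or above the floor were above it. Their median of 0.17 lay inside the middle 95% of genes, and in cavtratin 5 were higher, 2 lower and 3 equal, with a median of 0.012. None was 2-fold apart. Psmb9, an immunoproteasome subunit, was 0.46 higher in Cav1-shRNA, and B2m, the light chain of class I molecules, was higher by 0.25 in cavtratin and 0.34 in Cav1-shRNA. Tapbp, a class I loading chaperone, was higher by 0.34 and 0.18. None of these lists was tested against another.

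**Figure D5:**
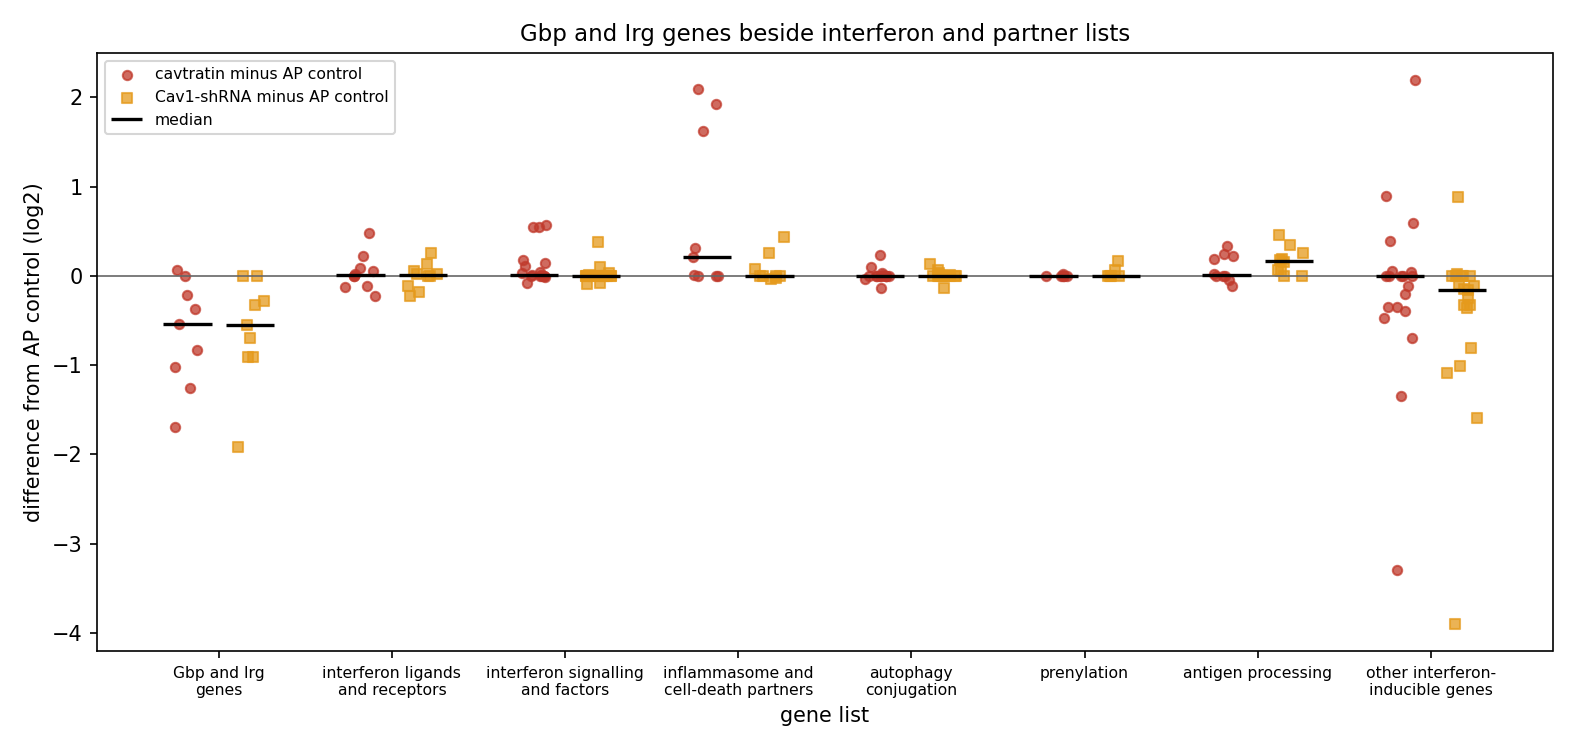
Log2 differences from AP control for the 9 Gbp and Irg genes beside 7 lists of interferon and partner genes. Points are genes (circles, cavtratin; squares, Cav1-shRNA), spread sideways at random, and black bars are list medians. The Gbp and Irg medians are −0.54 and −0.55, and the medians of the other lists lie between −0.16 and 0.21.

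In the 2 comparisons with AP control, genes outside the family that hold the response element letters were called more often in both directions than genes without them. Most of them were not called, and some counts are very small. The backgrounds cover all genes at or above the floor, the family included. Of such genes, 319 reached the floor in cavtratin or AP control, and 2 of these, or 0.627%, were at least 1.5-fold lower in cavtratin, against 10 of 8742 genes without the letters, or 0.114%, with a background of 0.235%. At least 1.5-fold higher were 14 of the 319, or 4.39%, against 181 of the 8742, or 2.07%, with a background of 2.19%. In Cav1-shRNA 5 of 314 genes with the letters, or 1.59%, were at least 1.5-fold lower, against 21 of 8714 without, or 0.241%, with a background of 0.367%. There 10 of the 314, or 3.18%, were higher, against 71 of the 8714, or 0.815%, with a background of 0.901%. More lower calls were not particular to the response element. With the gamma-activated site letters 0.401% were lower in cavtratin and 0.804% in Cav1-shRNA, against 0.108% and 0.241% without. With the NF-kB letters these shares were 0.170% and 0.310%, against 0.0386% and 0.233%. Higher calls in cavtratin were fewer with either, at 1.87% against 2.18% and 1.89% against 2.82%. These counts carry no test.

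Genes with the most similar pattern were found by the distance between their 2 log2 differences from AP control and those of the family, among 11364 genes whose mean was at or above the floor. Over 3 arrays such likeness is weak, and many genes can share it. Nearest to the family median were Olfr310, Id2, Clic4, Mir669a-3, Socs2 and Akap12, at distances of 0.051 to 0.20. Nearest to Gbp5 were Ifi203-ps at 0.48, Ccl7 at 0.80, Lif at 0.98, Car13 at 1.09, Adamts1 at 1.24 and Mir344e at 1.34. Ccl7, a monocyte chemokine, was at 7.38 in cavtratin and 6.57 in Cav1-shRNA, against 9.27 in AP control.

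Cell type markers were read beside these values. Retinal neurons were present as labelled, with Gnat1, a rod transducin, at 13.19 in all 3 arrays, and the summed linear level of 12 neuron markers was 14.80 in cavtratin and 14.82 in Cav1-shRNA, against 14.83 in AP control on the log2 scale. The same sum over 14 microglia and macrophage markers was 12.25 in cavtratin and 12.04 in Cav1-shRNA, against 11.36 in AP control. For 11 neutrophil and monocyte markers it was 12.42 and 11.77, against 11.40. Lcn2, at 11.52 and 11.16, against 10.92, made the largest part of that sum. Such sums are weighted to the probe sets with the highest values and are not levels of a cell type. At least 2-fold higher in cavtratin were 4 of the 12 microglia and macrophage markers that reached the floor, with a background of 1.36%. In Cav1-shRNA 3 of 12 were, with a background of 0.341%. The 4 were Fcer1g, Cd68, Mpeg1 and Itgam. Their differences from AP control were 1.85, 1.58, 1.64 and 1.68 in cavtratin and 1.09, 1.07, 1.21 and 0.83 in Cav1-shRNA. P2ry12, a marker of resident microglia, was at 6.87 in all 3 arrays, and the list medians were 0.028 in cavtratin and 0.44 in Cav1-shRNA. The neutrophil and monocyte list had medians of 1.49 and 0.25. Of its markers that reached the floor, 6 of 9 were at least 2-fold higher in cavtratin, with a background of 1.36%. In Cav1-shRNA 2 of 6 were, with a background of 0.341%. S100a8, a neutrophil alarmin, had the largest difference in cavtratin, at 3.74, and was at 1.46 in Cav1-shRNA. Ly6c2 went both ways, at −0.43 in cavtratin and 1.49 in Cav1-shRNA, and Ccr2 and Ly6g lay below the floor in all 3 arrays. For 10 endothelial markers the sums were 11.17 and 11.22, against 10.97, for 7 Muller glia markers 13.15 and 13.24, against 13.16, and for 3 astrocyte markers 8.64 and 8.63, against 8.36. The 12 markers of T cells and natural killer cells, the main sources of interferon-gamma, lay below the floor in all 3 arrays, with sums of 8.73 and 8.78, against 8.75. Lens markers, 8 in number, summed to 12.99 in cavtratin and 10.40 in Cav1-shRNA, against 10.56, with median differences of 0.52 and −0.020. At least 2-fold higher in cavtratin were 3 of the 5 that reached the floor, with a background of 1.36%. These were the crystallins Cryaa, Cryba1 and Crygs, higher by 2.83, 3.08 and 2.77. Of the other lens markers, Crybb2 was at 0.52 and Mip at −0.059 in cavtratin. Bfsp1, Bfsp2 and Lim2 lay below the floor in all 3 arrays, so the lens list did not move as 1 group. No marker on these lists had a value of 0, and the part of these cells in the Gbp differences was not tested.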

How the data were processed

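The authors deposited 1 table of log2 values per probe set for 3 Affymetrix whole-transcript arrays. The log2 scale was inferred from the deposited values, and their summarisation, normalization, background correction and software were not given in the sources used here. Per the labels' protocols, TRIZOL-extracted RNA was amplified, labelled with biotin and hybridised. Array medians were 6.06 in cavtratin, 6.01 in Cav1-shRNA and 6.07 in AP control.

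Of 41345 probe sets, 23521 had 1 gene symbol in the platform annotation, 1814 had several and 16010 were not listed. The 9 measured family genes all matched RefSeq (GRCm38.p6) by Entrez identifier. Genes took their highest-mean probe set. With 1 array per group no test was possible, no p-value exists, and the number of arrays limits the precision. The family, the lists and the motifs were chosen with earlier results of these data known. The naming rule took the family, its relatives, list members that were 2-fold apart or had the largest differences, and the 6 nearest patterns. Other list members and markers were named for their role, after their values were seen. Python 3.11.15, pandas 2.3.3, numpy 2.4.6 and matplotlib 3.10.9 were used. Alternatives were other scalings, the mean of all probe sets, other floors and other fold thresholds.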

Additional observations from a re-analysis of the deposited data

How the results depend on the processing

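Centring each array and quantile normalization moved no family gene's difference by more than 0.058 and 0.055, and the mean of all probe sets moved none, since each gene had 1. No member that was 2-fold apart changed sign under these 3 settings. Of 63 recomputed medians and counts, 57 stayed within 1.5 times or 0.1 of the reported value. Those 57 include every count of members at least 2-fold higher, which was 0 in each setting. They also include every count of members lower in Cav1-shRNA minus cavtratin, also 0, and the mean of all probe sets, which could move nothing. The figure of 57 therefore says little about stability. In cavtratin against AP control the median was −0.93 over members with a mean at or above the floor. That choice leaves out Gbp6, Irgm1 and Iigp1 and keeps Gbp5, which reached the floor in AP control alone. It thus favours genes that are high in AP control, and the shift is no support for the difference. In Cav1-shRNA against AP control the median over the same members was −0.80, which counted as staying. In cavtratin against AP control the count of members at least 2-fold lower was 1 with the floor at the 75th percentile and 1 at a 3-fold threshold, instead of 3. In Cav1-shRNA against AP control that count was 0 with the floor at the 75th percentile, 4 at a 1.5-fold threshold and 2 with the probe set shared by Gbp2 and Gbp2b added, an alternative chosen after seeing the data, instead of 1. The floor and threshold settings change these counts by construction. No paired analysis was possible because each group held 1 array, and for the same reason no array could be left out. Gbp6, Irgm1 and, outside AP control, Gbp5 and Iigp1 lie below the floor, as does Gbp3 in cavtratin, which limits what their differences show.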

Other observations

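Several family genes are covered only by probe sets annotated to more than 1 gene, which were assigned to none. Probe set 17262250, annotated to Tgtp1 and Tgtp2, was at 5.03 in cavtratin and 4.48 in Cav1-shRNA, against 5.36 in AP control, all below the floor. A second probe set of the same genes, 17262234, was at 5.67 in cavtratin and 5.57 in Cav1-shRNA, against 5.57 in AP control, so the 2 did not show the same order. The 4 probe sets that include Gvin1, a very large interferon-inducible GTPase, were higher than AP control in both other arrays, by 0.083 to 0.33 in cavtratin and by 0.019 to 0.21 in Cav1-shRNA.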
